A study of Mus musculus with 12 samples.

Results

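The genes described here encode 10 core proteins of the Bcl2 family: Bcl2, Bcl2l1, Mcl1, Bax, Bak1, Bid, Bad, Bbc3, Pmaip1 and Bcl2l11. They come from a list of names, not from a threshold on measured values, but the list was chosen with earlier results of these data known. They are 10 of the 55487 genes listed for each library. All 10 passed the filter on low counts, so each was tested.

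The family sets the threshold of the mitochondrial pathway of apoptosis. The guardians BCL2, BCL-XL (from Bcl2l1) and MCL1 hold the effectors BAX and BAK (from Bak1) in check, and free effectors open the outer mitochondrial membrane and release cytochrome c. The BH3-only proteins BID, BAD, PUMA (from Bbc3), NOXA (from Pmaip1) and BIM (from Bcl2l11) bind the guardians, and some of them also activate the effectors. In haematopoietic stem and progenitor cells MCL1 is known as a guardian that survival depends on, and NOXA as a BH3-only protein selective for MCL1 and A1.

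RNA was sequenced from LSK cells, the lineage-negative marrow cells carrying Sca1 and c-Kit that hold stem cells and early progenitors, of mice of 3 genotypes with 4 libraries each. Yy1+/+ was the wild-type control, Yy1-/- is labelled as lacking the transcription factor YY1, and Yy1-/- Smc3+/- as also lacking 1 allele of Smc3, a subunit of the cohesin ring. The labels do not name the Cre driver, its timing, the age of the mice or the number of animals behind a library, and do not say that libraries came from separate animals. The p-values therefore measure the spread between these libraries, which may be partly technical. In such bulk samples, fewer cells of a type and less RNA per cell cannot be told apart.

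The targeted genes were checked first. Yy1 stood at 33.9, 41.3, 34.2 and 34.01 CPM (counts scaled to a common library size) in Yy1+/+ replicates 1 to 4, at 0.407, 0.996, 5.01 and 12.2 in Yy1-/-, and at 0.772, 0.795, 4.45 and 0.944 in Yy1-/- Smc3+/-. Residual reads were thus highest in Yy1-/- replicates 3 and 4 and Yy1-/- Smc3+/- replicate 3. Smc3 was not lower in Yy1-/- Smc3+/- than in Yy1+/+ or Yy1-/-, at 254 to 344 against 160 to 214 and 200 to 306 CPM. Its mRNA level therefore does not check the Smc3+/- label. Library totals ran from 38671354 to 69086104, the deepest being Yy1+/+ replicate 2. That library and Yy1-/- replicate 1 had the highest scores on the second principal component of all tested genes, 47.3 and 114.8, while the other 10 lay between -63.4 and 26.0. Of the sorting markers, Ly6a, which encodes Sca1, was present in every library at 150 CPM or more, and Kit fell in both mutants without overlap, with 422 to 981 CPM in Yy1+/+, then 100.1 to 242 and 180 to 373 CPM.

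In Yy1-/- cells 5 of the 10 genes rose and 0 fell against Yy1+/+: the effector Bax, the guardians Bcl2 and Bcl2l1, and the BH3-only genes Pmaip1 and Bad. A gene is called at a Benjamini-Hochberg adjusted p under 0.05 in edgeR's quasi-likelihood test over all 16649 genes tested, and 35.2% of all these genes were called, 16.3% as higher and 18.8% as lower. Of the 5 genes 4 did not overlap with the control, as 13.4% of all genes did on the higher side. The median log2 fold change was 0.49 over the 10 members and 0.01 over all tested genes. In Yy1-/- Smc3+/- cells 4 of the 10 rose and 0 fell, namely Bax, Bcl2, Bcl2l1 and Pmaip1. There 29.9% of all genes were called, 13.1% as higher and 16.7% as lower. Of the 4 genes 3 did not overlap with the control, beside 14.7% of all genes on the higher side, and the members' median was 0.32 beside 0.02 over all genes. Both comparisons use the same 4 Yy1+/+ libraries. On the TPM scale (abundance corrected for length, with equal sums over libraries), the median of all genes moved to -0.18 in Yy1-/- and -0.11 in Yy1-/- Smc3+/-. There the split was 2 higher and 1 lower in Yy1-/- and 3 higher and 1 lower in Yy1-/- Smc3+/-, the lower gene being Mcl1. The shares of all genes called higher and lower on the TPM scale are not given, so these counts cannot be set against them.

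**Figure D1:**
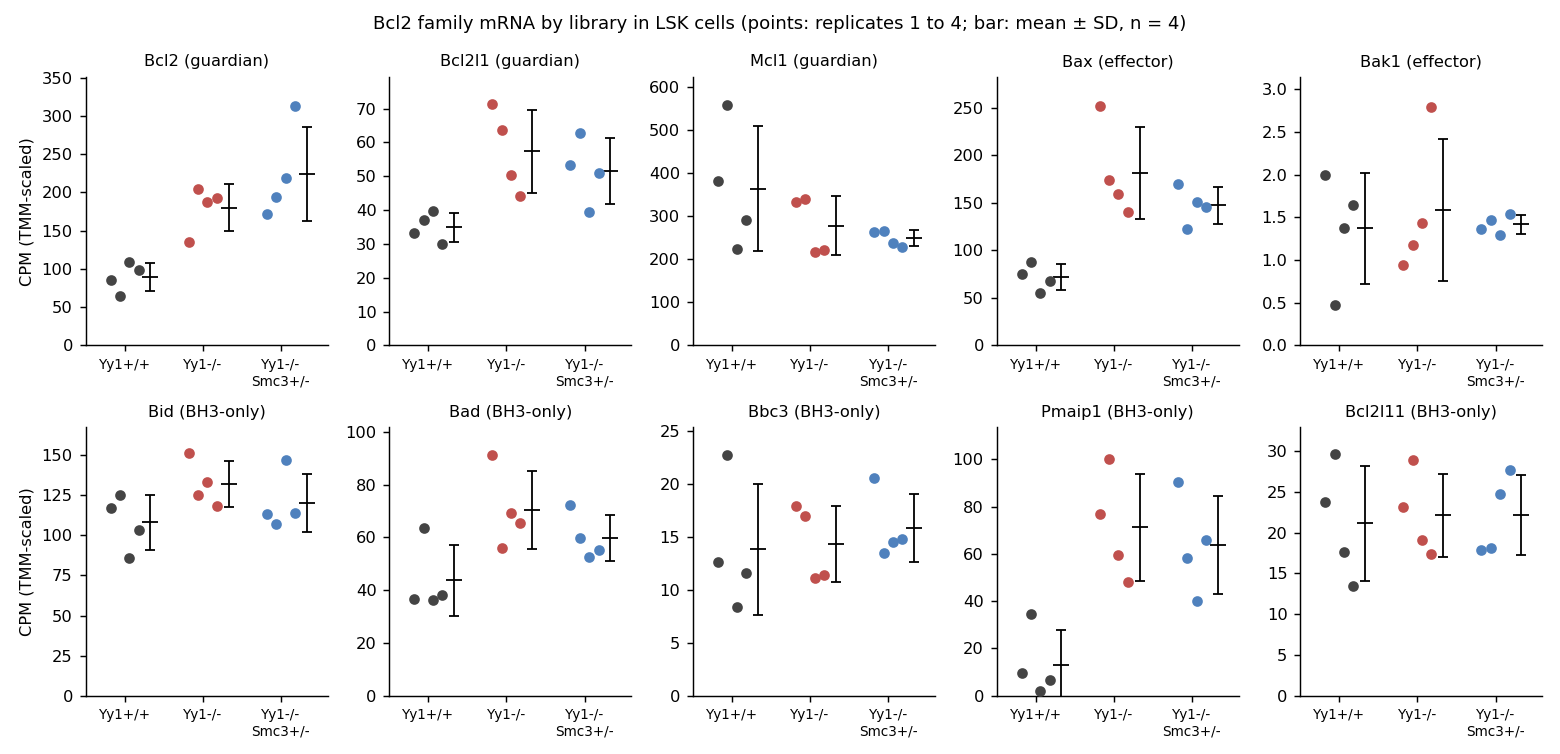
Level of each Bcl2 family mRNA in CPM (vertical axes from 0) in the 12 libraries of 3 genotypes (horizontal axis). Each point is a library, and the bar beside a group is its mean ± SD (n = 4), cut off at 0 for Pmaip1 in Yy1+/+. Bax, Bcl2 and Pmaip1 lie above every Yy1+/+ library in all 8 mutant libraries, while Mcl1, Bak1, Bid, Bbc3 and Bcl2l11 overlap.

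Among the 3 guardians of the 10 members, Bcl2 had the largest fold change. Bcl2 (ENSMUSG00000057329.7, chromosome 1:106538178-106714274, minus strand, GRCm38) was measured at 85.2, 65.1, 109 and 98.2 CPM in Yy1+/+, at 135, 204, 188 and 192 CPM in Yy1-/- and at 171, 194, 219 and 312 CPM in Yy1-/- Smc3+/-. Every mutant library lay above every control library. Its log2 fold changes were 1.01 ± 0.21 (SE, edgeR adjusted p = 0.00261) in Yy1-/- and 1.33 ± 0.21 (adjusted p = 0.000523) in Yy1-/- Smc3+/-. On the log2(TPM + 1) scale the Yy1-/- value was 0.76 and no longer passed (adjusted p = 0.053). On that scale Yy1-/- replicate 1, at 24.03 TPM, lay within the 13.8 to 29.4 TPM of Yy1+/+.

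Bcl2l1 (ENSMUSG00000007659.18, chromosome 2:152780668-152831728, minus strand), the gene of BCL-XL, stood at 33.1, 36.9, 39.6 and 30.0 CPM in Yy1+/+, at 71.4, 63.5, 50.4 and 44.0 CPM in Yy1-/- and at 53.4, 62.8, 39.3 and 50.9 CPM in Yy1-/- Smc3+/-. The Yy1-/- libraries did not overlap with the control, whereas the lowest Yy1-/- Smc3+/- library lay just below the highest control. Bcl2l1 rose on the log2 scale by 0.72 ± 0.19 (edgeR adjusted p = 0.00924) and 0.56 ± 0.19 (adjusted p = 0.035). Of 23 other settings of scaling, filter, tool or libraries left out, 21 kept the Yy1-/- call and 14 the Yy1-/- Smc3+/- call. The latter was lost, at adjusted p from 0.0572 to 0.167, without a filter, on the TPM scale and without any 1 of Yy1+/+ replicates 1 and 4, Yy1-/- replicate 3 and Yy1-/- Smc3+/- replicates 1, 2 and 4.

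Mcl1 (ENSMUSG00000038612.16, chromosome 3:95658788-95663176, plus strand) did not pass the test. It was at 381, 559, 225 and 290 CPM in Yy1+/+, at 333, 340, 218 and 221 CPM in Yy1-/- and at 264, 266, 239 and 228 CPM in Yy1-/- Smc3+/-. The control libraries were the most scattered, and their range covered nearly all mutant values. The log2 fold change was -0.39 (95% interval -0.91 to 0.14, edgeR adjusted p = 0.236) and -0.55 (interval -1.07 to -0.02, adjusted p = 0.107). Mcl1 passed on the log2(TPM + 1) scale, with -0.59 (adjusted p = 0.0312) and -0.69 (adjusted p = 0.0179), and, in Yy1-/- Smc3+/- only, without Yy1+/+ replicate 3, with -0.72 (adjusted p = 0.0332).

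Of the effectors, Bax rose in both mutants and Bak1 was scarce throughout. Bax (ENSMUSG00000003873.11, chromosome 7:45461697-45466898, minus strand) was at 75.4, 88.2, 55.5 and 68.0 CPM in Yy1+/+, at 251.3, 174, 159 and 140 CPM in Yy1-/- and at 170, 122, 151 and 146 CPM in Yy1-/- Smc3+/-. No mutant library fell within the control range. Bax rose 2.52-fold in Yy1-/- (log2 1.34 ± 0.19, edgeR adjusted p = 0.00026) and 2.05-fold in Yy1-/- Smc3+/- (log2 1.04 ± 0.19, adjusted p = 0.00158), and was called under all 23 other settings in both comparisons. Bak1 (ENSMUSG00000057789.14, chromosome 17:27019810-27029009, minus strand) was scarce in every library, from 0.26 to 1.71 TPM against 153 to 460 TPM for Bax. It ran from 0.474 to 1.99 CPM in Yy1+/+, 0.941 to 2.79 in Yy1-/- and 1.29 to 1.54 in Yy1-/- Smc3+/-. With log2 fold changes of 0.24 (interval -0.74 to 1.22) and 0.08 (interval -0.92 to 1.09), its intervals were wide, the second widest of the members after Pmaip1, and neither direction was shown.

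The Bax promoter is shown as that of a member called under every setting in both comparisons, as Pmaip1 was too. RefSeq promoter windows of build GRCm38.p6, 250 bases before to 50 after a transcript start, matched 9 of the 10 members with 15 windows in all. The Bax stretch below, chr7:45466899-45467118 on the minus strand, ends at the base before the start. Capitals mark a match to the p53 decamer, which begins 201 bases before the start, and an E-box (CACGTG) 9 bases before it. The Bbc3 stretch, chr7:16310311-16310430 on the plus strand, is set beside it as the only other member with an E-box, in capitals 64 bases before 1 of its starts.
Bax: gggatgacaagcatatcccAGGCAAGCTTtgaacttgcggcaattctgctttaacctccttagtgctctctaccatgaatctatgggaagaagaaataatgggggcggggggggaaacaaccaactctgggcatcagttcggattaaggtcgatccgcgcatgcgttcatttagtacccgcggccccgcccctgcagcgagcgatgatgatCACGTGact
Bbc3: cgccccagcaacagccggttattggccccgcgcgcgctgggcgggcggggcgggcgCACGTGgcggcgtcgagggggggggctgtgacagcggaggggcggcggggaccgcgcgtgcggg

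Bax also held a second E-box 36 bases after the start and the YY1 core AANATGGC 18 bases after the start, on the strand opposite to the gene. Over both strands and all 32851 windows of this length, the YY1 core was found in 6.05%, the E-box in 7.15%, the p53 decamer in 8.36% and the cAMP response element TGACGTCA in 1.79%. Of the 15 member windows 1 held the YY1 core, 2 an E-box, 1 the p53 decamer and 0 the cAMP response element. Every match lay in a window of Bax or Bbc3. These are matches of letters and not measured binding. The levels of p53 pathway genes are given with the regulators, and those of Bbc3 with the BH3-only genes. The part of these matches in the change of Bax was not tested.

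Of the BH3-only genes, Pmaip1 had the largest fold change of all 10 members. Pmaip1 (ENSMUSG00000024521.8, chromosome 18:66458533-66465565, plus strand), the NOXA gene, was at 9.64, 34.7, 1.83 and 6.54 CPM in Yy1+/+, at 77.0, 99.97, 59.5 and 48.1 CPM in Yy1-/- and at 90.5, 58.3, 40.3 and 65.8 CPM in Yy1-/- Smc3+/-. Yy1+/+ replicate 2 stood well above its group, yet below every mutant library. Pmaip1 rose by 2.41 ± 0.60 on the log2 scale (5.31-fold, edgeR adjusted p = 0.00758) and 2.25 ± 0.60 (4.76-fold, adjusted p = 0.013), called under all 23 other settings. Without Yy1+/+ replicate 2 it was 3.55 and 3.40.

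Bad (ENSMUSG00000024959.14, chromosome 19:6941861-6951899, plus strand) stood at 36.8, 63.7, 36.2 and 38.1 CPM in Yy1+/+, at 91.1, 56.2, 69.2 and 65.5 CPM in Yy1-/- and at 72.2, 59.6, 52.5 and 55.3 CPM in Yy1-/- Smc3+/-. In both mutants only Yy1+/+ replicate 2 reached into the mutant range. Bad rose in Yy1-/- by 0.69 ± 0.21 (log2, edgeR adjusted p = 0.0211), and its 0.45 ± 0.21 in Yy1-/- Smc3+/- did not pass (adjusted p = 0.118). The Yy1-/- call was kept under 16 of 23 other settings, and lost at adjusted p from 0.0522 to 0.0865 on the TPM scale, without Yy1+/+ replicate 1, 3 or 4, without Yy1-/- replicate 1 and without the 3 libraries with most residual Yy1. Without Yy1+/+ replicate 2 the Yy1-/- Smc3+/- value was 0.69 and passed (adjusted p = 0.0116).

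The other BH3-only genes did not pass in any comparison. Bid (ENSMUSG00000004446.12, chromosome 6:120891930-120916853, minus strand), which links death receptors to mitochondria, ran from 86.0 to 125 CPM in Yy1+/+, 118 to 152 in Yy1-/- and 107 to 147 in Yy1-/- Smc3+/-, with log2 fold changes of 0.29 (interval -0.03 to 0.61) and 0.15 (interval -0.16 to 0.47). Bbc3 (ENSMUSG00000002083.13, chromosome 7:16308393-16318205, plus strand) ran from 8.40 to 22.7, 11.1 to 17.9 and 13.5 to 20.5 CPM in the same order, with 0.04 (interval -0.59 to 0.68) and 0.19 (interval -0.45 to 0.82). Bcl2l11 (ENSMUSG00000027381.16, chromosome 2:128126038-128162547, plus strand) ran from 13.4 to 29.6, 17.4 to 28.9 and 17.9 to 27.7 CPM, with 0.06 (interval -0.50 to 0.62) and 0.06 (interval -0.50 to 0.62). All 3 overlapped between genotypes. The intervals do not show that these levels were equal.

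**Figure D2:**
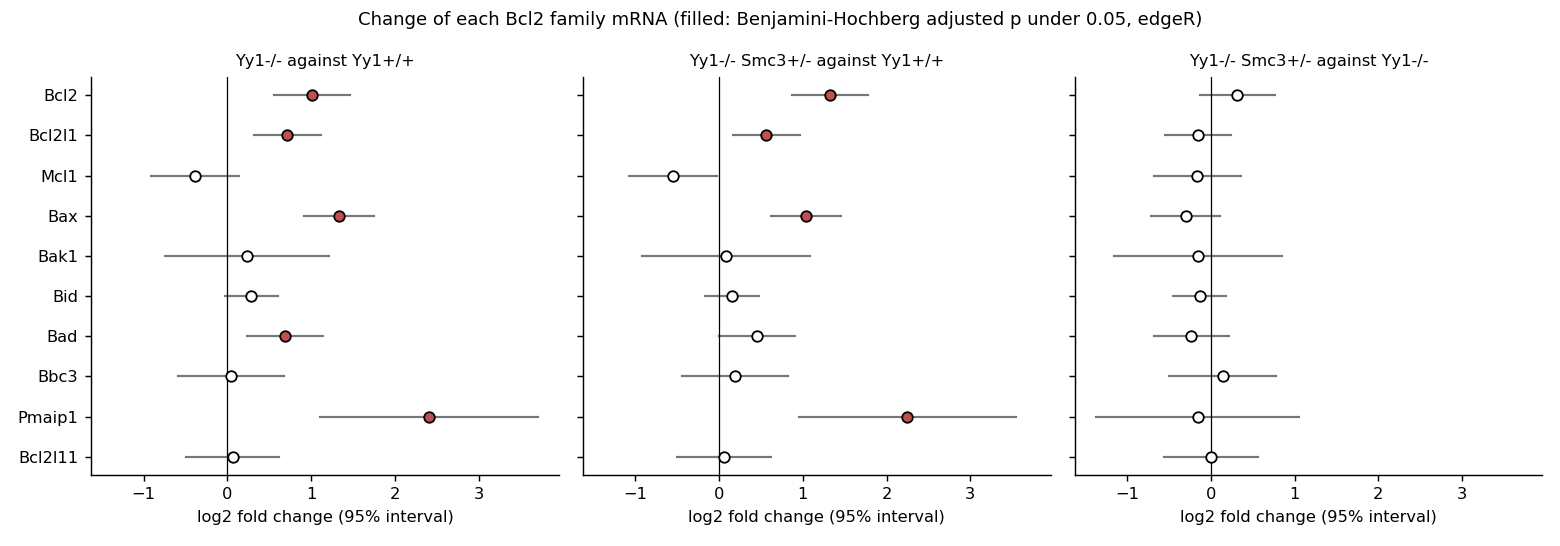
Log2 fold change of each Bcl2 family gene (points, horizontal axis) with its 95% interval (lines) in 3 comparisons of genotypes, 4 libraries each. Filled points passed an adjusted p of 0.05 in edgeR, which 5, 4 and 0 of the 10 members did from left to right.

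Yy1-/- Smc3+/- was also compared with Yy1-/- directly, groups whose labels differ by 1 Smc3 allele. Mean Smc3 was 301 CPM in Yy1-/- Smc3+/- and 255 CPM in Yy1-/-, and mean residual Yy1 was 1.74 and 4.65 CPM. The comparison is therefore one of labels and not of a measured Smc3 dose. By edgeR's quasi-likelihood test 0 of the 10 members passed, 0 had an unadjusted p under 0.05, and DESeq2 also called 0. Of all 16649 genes 6 were called, which is 0.036%. The members' median log2 fold change was -0.15. Bcl2 differed by 0.32 (95% interval -0.13 to 0.76, adjusted p = 0.819) and Bax by -0.30 (interval -0.71 to 0.11, adjusted p = 0.815). The corresponding values were -0.15 for Bcl2l1 (interval -0.55 to 0.25), -0.16 for Mcl1 (interval -0.68 to 0.36) and -0.16 for Pmaip1 (interval -1.37 to 1.06). These intervals do not show that the mutants are alike, and that of Pmaip1 spans more than a doubling in either direction. Bad, called in Yy1-/- only, differed between the mutants by -0.23 (interval -0.68 to 0.21), so a difference in its response was not shown.

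Levels of different genes were compared on the TPM scale, which is corrected for length. In Yy1+/+ cells Mcl1 (203 ± 63.6 TPM, SD, n = 4) and Bax (178 ± 17.9 TPM) were the highest members and overlapped. Bid and Bad followed at 78.7 ± 8.08 and 76.3 ± 14.3 TPM, also overlapping, and then Bcl2l1 and Bcl2 at 22.7 ± 3.96 and 22.5 ± 6.60 TPM. Bbc3 (12.2 TPM), Bcl2l11 (8.13 TPM), Pmaip1 (6.92 TPM) and Bak1 (0.943 TPM) came last, each overlapping with its neighbour. In Yy1-/- cells Bax was first at 368 ± 64.6 TPM and did not overlap with Mcl1, next at 130 ± 17.7 TPM, and Bax led likewise in Yy1-/- Smc3+/- at 321 ± 32.7 against 122 ± 15.2 TPM. Pmaip1 was ninth of the 10 in Yy1+/+ and sixth in both mutants, at 33.6 ± 10.5 and 32.3 ± 10.5 TPM, where it overlapped with Bcl2 above it and Bcl2l1 below it. Just above it, Bcl2 stood at 38.8 ± 10.7 and 52.7 ± 18.4 TPM.

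Ratios within a library, given as a description without a test, show how the balance of these mRNAs differed. The ratio of Bax to Mcl1 was 0.863, 0.659, 1.077 and 1.10 in Yy1+/+, 3.35, 2.43, 2.91 and 2.63 in Yy1-/- and 2.72, 2.11, 2.73 and 3.07 in Yy1-/- Smc3+/-. Every mutant library had more Bax than Mcl1 mRNA, and no mutant ratio came near the control range. The summed effectors over the summed guardians Bcl2, Bcl2l1 and Mcl1 ran from 0.589 to 0.862 in Yy1+/+, 1.62 to 2.35 in Yy1-/- and 1.31 to 1.83 in Yy1-/- Smc3+/-. This sum leaves out the Bcl2a1 genes of the guardian A1. The ratio of Bax to Bcl2, by contrast, overlapped among the genotypes, at 5.21 to 13.5, 6.47 to 19.1 and 4.09 to 10.1.

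The mix of the guardians Bcl2, Bcl2l1 and Mcl1 differed too. Of their summed TPM, Mcl1 made up 71.1 to 89.3% in Yy1+/+, 61.5 to 70.2% in Yy1-/- and 49.2 to 67.1% in Yy1-/- Smc3+/-. Bcl2 made up 4.36 to 14.7%, 12.3 to 25.0% and 18.2 to 37.0%. The Bcl2a1 genes of the guardian A1 are not in this sum. Among them Bcl2a1b had means of 4.55, 21.5 and 10.2 TPM in the same order of genotypes. The Mcl1 share did not overlap between control and mutants, and the Bcl2 share overlapped in Yy1-/- only. Pmaip1 over Mcl1, the pair in which the first protein binds the second, ran from 0.00809 to 0.0602 in Yy1+/+, 0.207 to 0.322 in Yy1-/- and 0.168 to 0.335 in Yy1-/- Smc3+/-.

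**Figure D3:**
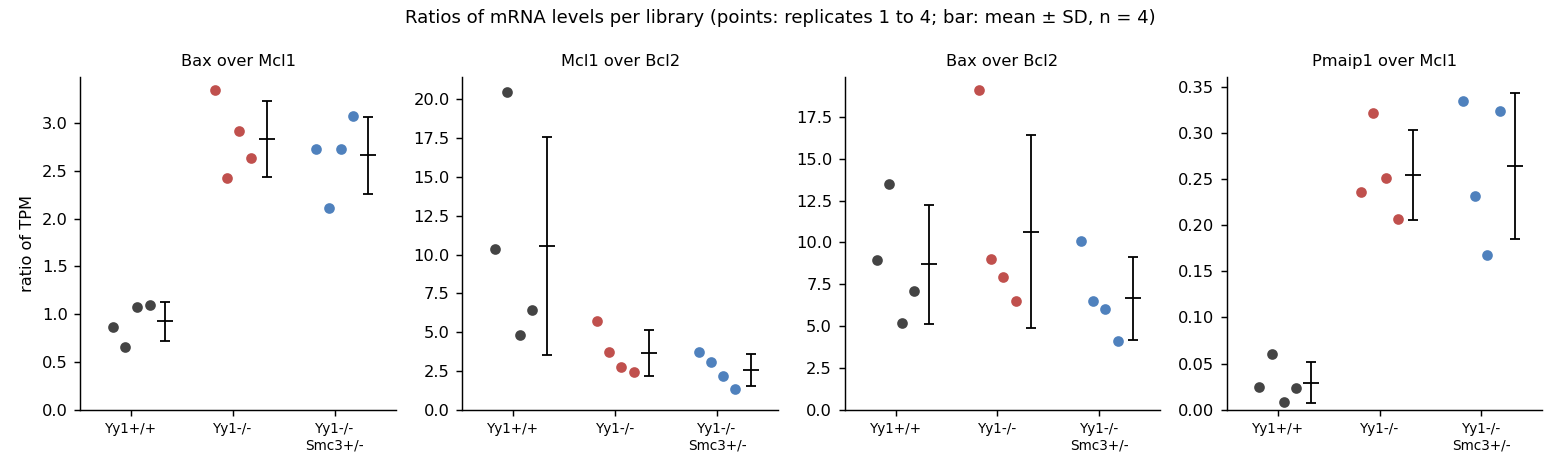
Ratios of TPM between pairs of Bcl2 family genes (vertical axes from 0, no unit) in the 12 libraries of 3 genotypes. Points are libraries and bars are mean ± SD (n = 4). Bax over Mcl1 lies at 1.10 or less in Yy1+/+ and at 2.11 or more in both mutants, Pmaip1 over Mcl1 is likewise separate, and Bax over Bcl2 overlaps.

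Bcl2 also differed in the mix of its transcripts. Bcl2 has a longer annotated transcript of 7191 bases (Bcl2-201) and a shorter one of 2841 bases (Bcl2-202), and the deposited mean length of the gene gives the estimated share of each if the authors' annotation, whose release is not stated, held these same 2 transcripts. The shorter one made up 30.0, 32.4, 29.7 and 28.9% of Bcl2 transcripts in Yy1+/+, 26.9, 25.6, 38.8 and 45.0% in Yy1-/- and 29.0, 26.6, 46.2 and 46.8% in Yy1-/- Smc3+/-. Replicates 3 and 4 of both mutants thus stood above the 8 other libraries, a split that does not follow genotype. The same 4 libraries had the lowest scores on the second principal component, -41.1 and -35.9 in Yy1-/- and -54.5 and -63.4 in Yy1-/- Smc3+/-, and the part of that component in the share was not tested. The longer transcript alone was at 9.30 to 20.6 TPM in Yy1+/+, 17.6 to 30.4 in Yy1-/- and 25.7 to 41.9 in Yy1-/- Smc3+/-, so it overlapped with the control in Yy1-/- and not in Yy1-/- Smc3+/-. The shorter transcripts of Mcl1 (17.5 to 35.1%) and Bax (3.76 to 8.73%) varied without such a split.

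**Figure D4:**
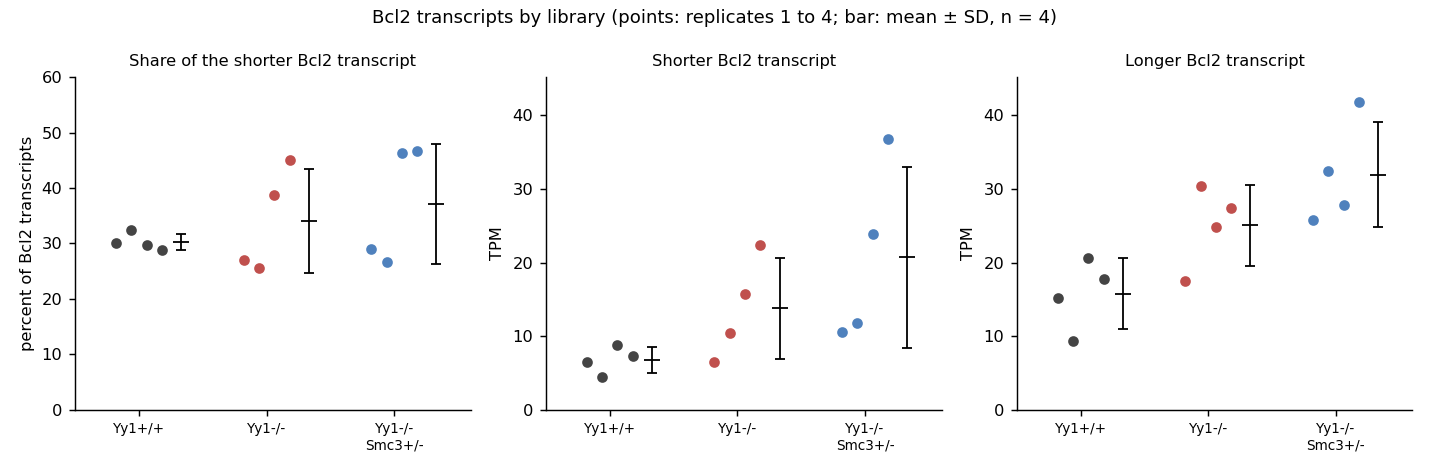
Share of the shorter Bcl2 transcript in percent (left) and levels of the shorter and longer transcripts in TPM (middle and right), derived from the deposited mean length and TPM of Bcl2 in 12 libraries. Points are libraries in the order of replicates 1 to 4, and bars are mean ± SD (n = 4). Replicates 3 and 4 of both mutants lie at 38.8 to 46.8%, and the other 8 libraries at 25.6 to 32.4%.

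The members' highest and lowest values were spread unevenly over the libraries of a group. In Yy1-/- replicate 1 was the highest for 5 of the 10 members and replicate 4 the lowest for 5. Yy1+/+ replicate 2 was the highest of its group for 7 of the 10 members, namely Mcl1, Bax, Bid, Bad, Bbc3, Pmaip1 and Bcl2l11, and replicate 3 was the lowest for 6. The shares of all genes are not given beside these counts, so they are not read as a trait of the members. Yy1+/+ replicate 2 also had the most mRNA of Fos, Jun, Dusp1 and Hspa1a, immediate early and heat shock genes chosen after their values were seen, at 3071, 4071, 2177 and 2509 CPM. Replicate 3 had the least of its group, at 90.0, 178, 71.8 and 29.2 CPM. The part of this in the members' values was not tested. When any single library was left out, replicate 2 included, the log2 fold change of Bax lay between 1.11 and 1.45 in Yy1-/- and between 0.93 and 1.15 in Yy1-/- Smc3+/-.

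Markers of other marrow cells were examined beside the members. For comparison, 16.3% of all genes were called higher and 18.8% lower in Yy1-/-, and 13.1% and 16.7% in Yy1-/- Smc3+/-. Of the monocyte and macrophage markers 7 of 9 rose in Yy1-/- and 3 of 9 in Yy1-/- Smc3+/-. Their summed level was 563 to 1389 CPM in Yy1+/+, 6366, 4369, 617 and 976 CPM in Yy1-/- replicates 1 to 4, and 788 to 1466 CPM in Yy1-/- Smc3+/-. Yy1-/- replicates 1 and 2 were also the highest of their group for Bax, Bcl2l1 and Pmaip1. Both had the least residual Yy1 of the group, at 0.407 and 0.996 CPM against 5.01 and 12.2 CPM in replicates 3 and 4. Monocyte content and residual Yy1 therefore cannot be told apart within Yy1-/-. Replicates 3 and 4 had monocyte sums within the control range, a sum to which Lyz2 gave 177 and 348 CPM there, but their Ms4a6c, at 143 and 111 CPM, exceeded the 25.3 to 37.6 CPM of Yy1+/+, and Csf1r was at 43.2 and 73.9 against 22.3 to 49.3 CPM. These replicates had more Bax, Bcl2, Bcl2l1 and Pmaip1 than any control library. For the other lists the counts in Yy1-/- and Yy1-/- Smc3+/- were as follows: neutrophil genes 2 and 1 of 10 higher, B cell genes 0 and 2 of 6 higher, and T and NK cell genes 4 and 4 of 7 higher, although the T and NK sum was 152 to 318 CPM in Yy1+/+ against 50.3 to 212 and 76.5 to 262. Erythroid genes were lower for 1 and 2 of 6, megakaryocyte genes for 2 and 1 of 5, eosinophil genes for 3 and 3 of 3 and plasma cell genes for 1 and 1 of 3. Of 5 mast cell and basophil genes 1 was higher and 2 were lower in each mutant. Of the 6 sorting markers 1 rose and 3 fell in Yy1-/-, and 1 rose and 2 fell in Yy1-/- Smc3+/-. Epx was at 0 in all Yy1-/- libraries. The part of cell composition in the members' changes was not tested.

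A list of further family members and genes of interacting or associated proteins held 15 tested genes. In Yy1-/- 5 rose and in Yy1-/- Smc3+/- 2 rose, and 0 fell, with median log2 fold changes of 0.17 and 0.10. Over all genes, 16.3% rose and 18.8% fell in Yy1-/-, and 13.1% and 16.7% in Yy1-/- Smc3+/-. Bnip2, which encodes a BCL2-interacting protein, rose by 0.59 ± 0.13 (edgeR adjusted p = 0.0043) and 0.42 ± 0.13 (adjusted p = 0.0291), kept under 23 and 12 of 23 other settings. Bclaf1, the gene of a BCL2-associated transcription factor, rose by 0.44 ± 0.15 (adjusted p = 0.0339) and 0.51 ± 0.15 (adjusted p = 0.02), kept under 11 and 15 of 23 other settings. These were the 2 genes called in Yy1-/- Smc3+/-, and neither is a family member in the strict sense. Bcl2l10, Bcl2l15 and Hrk were too low to be tested.

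The Bcl2a1 genes encode the guardian A1, found in myeloid and lymphoid cells, and are near-identical copies, so the split of reads among them is uncertain. Bcl2a1b was at 3.51, 1.29, 0.84 and 0.969 CPM in Yy1+/+, at 18.2, 11.7, 2.85 and 6.69 CPM in Yy1-/- and at 4.04, 3.30, 7.11 and 2.91 CPM in Yy1-/- Smc3+/-. Bcl2a1b rose in Yy1-/- by 2.55 ± 0.58 (log2, edgeR adjusted p = 0.00466), Bcl2a1d by 1.54 ± 0.45 (adjusted p = 0.0171) and Bcl2a1a by 2.36 ± 0.80 (adjusted p = 0.0353). These calls were kept under 23, 22 and 13 of 23 other settings, and Bcl2a1a did not pass, at adjusted p from 0.058 to 0.159, without any 1 of Yy1+/+ replicates 2, 3 and 4 and Yy1-/- replicates 1 and 2. None of the 3 passed in Yy1-/- Smc3+/-, with 1.36, 0.94 and 1.01, and the difference between the mutants did not pass for any of them. The highest Bcl2a1b libraries were Yy1-/- replicates 1 and 2, which also had the highest monocyte sums and the least residual Yy1 of their group.

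**Figure D5:**
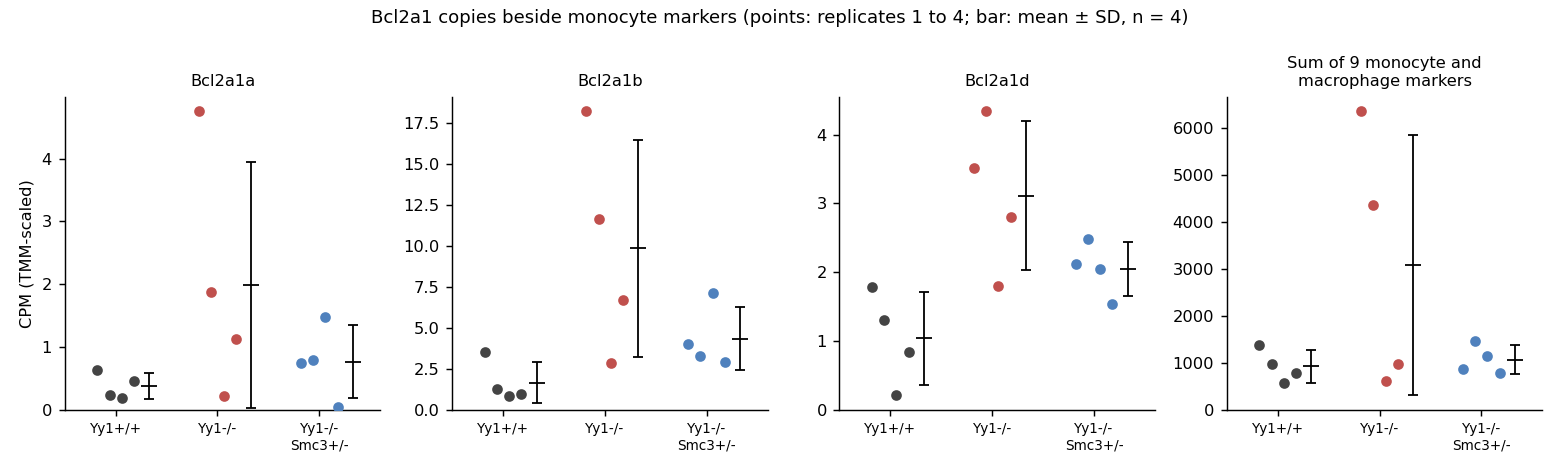
Levels of the 3 Bcl2a1 copies and the summed level of 9 monocyte and macrophage markers, in CPM (vertical axes from 0), in the 12 libraries of 3 genotypes. Points are libraries in the order of replicates 1 to 4, and bars are mean ± SD (n = 4). Yy1-/- replicates 1 and 2 are the highest for Bcl2a1b and, at 6366 and 4369 CPM, for the markers.

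Downstream of BAX and BAK, the list held genes of the apoptosome and of mitochondrial release. Of 17 tested, 3 rose and 1 fell in Yy1-/- and 2 rose and 2 fell in Yy1-/- Smc3+/-, with medians of 0.16 and 0.00. Beside these counts, 16.3% of all genes rose and 18.8% fell in Yy1-/-, and 13.1% and 16.7% in Yy1-/- Smc3+/-. Endog, a mitochondrial nuclease, rose in both, by 0.91 ± 0.22 (edgeR adjusted p = 0.00602) and 0.85 ± 0.22 (adjusted p = 0.0108), under all 23 other settings. Diablo, which antagonises inhibitors of apoptosis, fell by 0.49 on the log2 scale in Yy1-/- Smc3+/- (adjusted p = 0.0176). Cycs (cytochrome c) and Pdcd5 rose in Yy1-/- by 0.52 and 0.55, Apaf1, the scaffold of the apoptosome, rose in Yy1-/- Smc3+/- by 0.71, and the caspase gene Casp6 fell by 0.42 and 0.43. These calls of Cycs, Pdcd5, Apaf1 and Casp6 were kept under 6, 14, 9, and 9 and 11 of 23 other settings.

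Among 8 tested inhibitors of apoptosis, 1 rose and 2 fell in Yy1-/- and 2 rose and 1 fell in Yy1-/- Smc3+/-. Their medians were 0.30 and 0.00. The shares of all genes were 16.3% higher and 18.8% lower in Yy1-/-, and 13.1% and 16.7% in Yy1-/- Smc3+/-. Birc5 (survivin), which also acts in chromosome segregation, rose by 1.02 ± 0.13 (edgeR adjusted p = 0.00012) and 0.83 ± 0.13 (adjusted p = 0.000525). Naip5, a sensor of bacterial flagellin, fell by 1.29 and 0.90 on the log2 scale (adjusted p = 0.000479 and 0.00498), although the Naip genes are related copies. Birc2, a ubiquitin ligase, fell in Yy1-/- by 0.37 and Birc6, a very large member of the group, rose in Yy1-/- Smc3+/- by 0.93, kept under 9 and 6 of 23 other settings.

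In the death receptor arm that leads to BID, 2 of 12 tested genes rose and 2 fell in Yy1-/-. In Yy1-/- Smc3+/- 0 rose and 1 fell, and the medians were 0.01 and -0.04. Among all genes, 16.3% rose and 18.8% fell in Yy1-/-, and 13.1% and 16.7% in Yy1-/- Smc3+/-. Tnfsf10, the gene of the ligand TRAIL, fell by 1.46 and 1.96 on the log2 scale (edgeR adjusted p = 0.000672 and 0.000128), from a mean of 39.4 CPM in Yy1+/+ to 14.3 and 10.1 CPM. Tnfrsf1a, a TNF receptor, rose in Yy1-/- by 0.50 and its adaptor Tradd fell by 0.52, kept under 11 and 9 of 23 other settings. Fasl rose by 3.01 in Yy1-/- from a mean of only 0.109 CPM, and this call was kept under 5 of 21 other settings and changed its sign under at least 1.

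Of 13 tested regulators of BH3-only genes in the p53 and FOXO pathways, 0 rose and 3 fell in each mutant. Their medians were -0.06 and 0.04. Of all genes, 16.3% rose and 18.8% fell in Yy1-/-, and 13.1% and 16.7% in Yy1-/- Smc3+/-. Foxo3, a transcription factor known to act on Bcl2l11, fell by 1.04 and 1.02 on the log2 scale (edgeR adjusted p = 0.0103 and 0.0138). Ppp1r13b, a p53-binding protein, fell by 0.92 and 0.77 (adjusted p = 0.0031 and 0.0104), and the stress factor Ddit3 fell by 1.47 and 1.46 (adjusted p = 0.0334 and 0.0395). The call of Ddit3 was kept under 14 of 23 other settings in each comparison, and without Yy1+/+ replicate 2 its values were -0.57 and -0.56 and did not pass (adjusted p = 0.166 and 0.191). Trp53, which encodes p53, was not called, with 0.11 and 0.24, nor was its target Mdm2, with -0.01 and 0.02. The target Cdkn1a had 1.298 ± 0.72 (adjusted p = 0.177) and 0.90 ± 0.71 (adjusted p = 0.367). Its control libraries ran from 8.08 to 146 CPM, with a median of 16.4, and without Yy1+/+ replicate 2 Cdkn1a passed, with 3.08 (adjusted p = 0.000331) and 2.68 (adjusted p = 0.00078). It passed under 5 of 23 other settings in each comparison.

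The last group held kinases, binding partners and ligases that act on family proteins. Of 23 tested, 1 rose and 4 fell in Yy1-/-, and 1 rose and 3 fell in Yy1-/- Smc3+/-, with medians of -0.06 and -0.02. Taken over all genes, 16.3% rose and 18.8% fell in Yy1-/-, and 13.1% and 16.7% in Yy1-/- Smc3+/-. Btrc, a ubiquitin ligase subunit, fell by 1.15 and 0.98 on the log2 scale (edgeR adjusted p = 0.000177 and 0.000591). Mapk3, a kinase gene, fell by 0.91 in Yy1-/- and by 0.58 in Yy1-/- Smc3+/- (adjusted p = 0.0031 and 0.0371), the latter kept under 17 of 23 other settings. Dynll1, a dynein light chain that can bind BIM, rose in Yy1-/- by 0.57 (adjusted p = 0.00928), and Akt1, whose kinase phosphorylates BAD, rose in Yy1-/- Smc3+/- by 0.50 (adjusted p = 0.0153). By edgeR, 0 genes of these lists passed between the mutants.

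The 12 libraries span 3 genotypes, so differences between genotypes enter any correlation across them. As a description, the genes most like each member called in both comparisons were listed by Pearson correlation of log2 CPM. For Bax these were Znhit1 (r = 0.990), Tbcb (0.987) and Myd88 (0.986), and for Bcl2 they were Arhgap27os3 (0.972), Gm49405 (0.970) and Il18rap (0.963). Cep89 (0.947), Pira2 (0.934) and Sdccag8 (0.932) were nearest to Bcl2l1, and Lypla2 (0.960), Nostrin (0.959) and 1700008O03Rik (0.951) to Pmaip1. Within the family, the highest values were 0.903 for Bax with Pmaip1, 0.863 for Bax with Bad and 0.839 for Bad with Pmaip1, and the lowest was -0.71 for Bcl2 with Mcl1.

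Counting could blur some members. Another annotated gene overlaps Bcl2, Bax, Bak1, Bid and Bad, on the opposite strand for Bcl2 (D630008O14Rik), Bak1 (Ggnbp1), Bad (Gpr137) and Bid (Bcl2l13 and Gm17812), and the library kit does not mark the strand. Reads shared with other genes gave non-whole counts for Bcl2 in 10, Bax in 8 and Bad in 12 of the 12 libraries, and for no other member.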

How the data were processed

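Per the submitters' processing notes, the files involve STAR 2.5.2b and RSEM 1.3.0 and build mm10, and no source used here names the annotation release. The deposited RSEM gene tables hold, per the file headers, expected counts (estimated counts, not scaled), TPM (scaled for length and depth), FPKM (not used) and mean lengths over transcripts. Symbols come from GENCODE M21 on GRCm38, where 55094 of 55487 identifiers matched with version and 300 with another.

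Expected counts were rounded and tested with edgeR 4.0.16 (R 4.3.3): filter at minimum count 10 and total 15, TMM, 1 quasi-likelihood model over 12 libraries with genotype as its only term, Benjamini-Hochberg over 16649 genes. CPM are TMM-scaled, and SE is the model's. TPM was compared with limma 3.58.1 on log2(TPM + 1) and log2(TPM + 0.1) as an alternative. Others were DESeq2 1.42.0, limma-voom, RLE size factors, no filter or minimum count 50, 2 genotypes alone, and libraries left out. The edgeR legacy dispersion and 2 sets of left-out libraries were added after seeing the data. Data were simulated for Yy1-/- against Yy1+/+ with 16335 genes. There 97 of 100 genes with a 4-fold change and 58 of 99 with a 2-fold change were recovered. Every simulated gene had the same dispersion, and far fewer genes were changed than were called in the data. These shares therefore do not give the power for the members.

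The members and lists were chosen with earlier results of these data known. Genes named are the members, Yy1, Smc3, up to 4 called genes with the smallest p per pathway list and comparison, the 3 highest markers of cell lists (not all printed), and the 3 nearest patterns; 1 gene that the rule names is not reported here. Bcl2a1a, Trp53, Mdm2, Cdkn1a, Ly6a and Epx were named outside that rule.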

Additional observations from a re-analysis of the deposited data

Results flagged for a closer look

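In Yy1+/+ the highest library for Bad, replicate 2, was at 63.7 CPM, and its gap to the next library took up 0.933 of the group's whole range, above Dixon's critical value for 4 samples. It was the 1 flag among 30 groups of members examined, and chance flags about 1 in 20 groups.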

How the results depend on the processing

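No paired analysis was made because the replicate numbers follow accession order and the labels give no pairing or batch. Over 23 other settings, Bax and Pmaip1 kept direction and call in both comparisons against Yy1+/+, and Bcl2 in Yy1-/- Smc3+/-. Leaving out 1 library at a time gave 4 to 5 members called in Yy1-/-, 3 to 5 in Yy1-/- Smc3+/- and 0 between the mutants. Over all genes, the same settings called 4910 to 6027, 3835 to 5273 and 5 to 7. With log2(TPM + 1) and with log2(TPM + 0.1) the members called in Yy1-/- numbered 3, and the share of all genes called there is not given. Over all genes between the mutants, 53 were called with DESeq2, 3 with limma-voom and 311 without the 3 libraries with most residual Yy1, against 6, and the cause was not tested.

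Direction turned only for values that did not pass. In Yy1-/-, Bak1 was -0.02 with log2(TPM + 1) and -0.36 without the 3 libraries with most residual Yy1, Bbc3 -0.15 and -0.16 on the log2(TPM + 1) and log2(TPM + 0.1) scales, and Bcl2l11 -0.18 and -0.19. In Yy1-/- Smc3+/-, Bak1 was -0.13 with limma-voom, -0.05 with log2(TPM + 1) and -0.29 without the 2 libraries that stand apart, Bid -0.02 and Bcl2l11 -0.02 on both TPM scales, and Bcl2l11 -0.04 without the 3 libraries. Between the mutants, Bak1 was 0.01 with log2(TPM + 0.1) and 0.43 without the 3 libraries, where Bbc3 was -0.11. With 1 library left out, Bak1 ran from -0.20 to 0.50 in Yy1-/-, -0.25 to 0.35 in Yy1-/- Smc3+/- and -0.33 to 0.24 between the mutants, Bbc3 from -0.13 to 0.39 in Yy1-/- and -0.01 to 0.26 between the mutants, Bcl2l11 from -0.10 to 0.27, -0.11 to 0.27 and -0.13 to 0.15 in these 3 comparisons in turn, and Pmaip1 from -0.38 to 0.05 between the mutants. Bak1 was the member with the fewest counts, and the part of depth in its spread was not tested.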

Other observations

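Bcl2l2, the gene of the guardian BCL-w, was not called in either mutant, with log2 fold changes of 0.72 ± 0.49 (edgeR adjusted p = 0.276) and 1.04 ± 0.49 (adjusted p = 0.122). It was at 2.69, 5.04, 2.99 and 2.77 CPM in Yy1+/+, at 1.88, 3.23, 9.001 and 8.38 CPM in Yy1-/- and at 6.13, 3.16, 9.08 and 9.93 CPM in Yy1-/- Smc3+/-. Its 4 highest libraries, replicates 3 and 4 of both mutants, were the ones with the largest share of the shorter Bcl2 transcript. The gene was chosen after its values were seen.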
